A study of Mus musculus with 36 samples.

Results

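The mouse miR-297, miR-466, miR-467 and miR-669 families are microRNAs (miRNAs), short RNAs that guide Argonaute proteins to target mRNAs, and most of their hairpins sit in tandem in a single intron of Sfmbt2, a gene of the Polycomb group. Members were all mature miRNAs whose name begins with one of these 4 family numbers, which gave 80 of the 1966 mature names counted. Of these, 70 had counts, and because some names carried identical counts in every library they made 67 separate measurements. By RefSeq positions on GRCm38.p6, 68 names have hairpins only within Sfmbt2, 10 only elsewhere and 2 in both places. Names with hairpins only in Sfmbt2 held 99.3% of the members' counts. The 10 names with no count anywhere were miR-466f-3p, miR-466i-5p, miR-466l-5p, miR-467b-3p, miR-467f, miR-467g, miR-669h-3p, miR-669i, miR-669j and miR-669k-3p.

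A miRNA hairpin is cut from its primary transcript by Drosha and then by Dicer, and either arm of the hairpin (5p or 3p) can be loaded into an Argonaute protein. A miRNA made from an intron shares the transcript of its host gene. Sfmbt2 is an imprinted gene read from the paternal copy in mouse extraembryonic tissue, and its intron cluster is a rodent expansion of related hairpins, known mainly from placenta and embryonic stem cells.

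The study counted miRNAs in CD4+ TCRb+ cells sorted from the spleen of C57BL/6J mice, in 36 libraries and 10 groups. In the AGO134 experiment, wild-type (WT) cells were compared with cells lacking AGO1, AGO3 and AGO4 (labelled AGO134-/-, here AGO134 knockout), and the series text calls the animals littermates. There were 4 WT and 4 knockout libraries of naive T cells, 4 and 4 of cells cultured for 7 days under T helper 2 (Th2) conditions, and 3 and 3 of cells at 14 days. In the AGO2 experiment, all cells carried a Cre transgene driven by CD4, active in the T cell lineage, with a Cre-dependent eYFP reporter (CD4Cre;R26LSLeYFP, here Cre), and the knockout cells also had floxed Ago2 (CD4Cre;R26LSLeYFP;AGO2f/f, here AGO2 knockout), with 3 Cre and 4 knockout libraries of naive cells and the same numbers of Th2 cells. The labels give 5 days of Th2 culture for this experiment where the series text gives 7, and day 5 is used below. Ago mRNAs are outside these data, which leaves the genotypes unchecked. Replicates are not said to be separate animals, so the p-values cover only the spread among these libraries, which may be technical. A level here is a share of the library's miRNAs, and in bulk RNA fewer cells of a type and less RNA per cell cannot be told apart.

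Depth set what could be seen. Libraries of the AGO134 experiment held 64264 to 273724 miRNA counts and those of the AGO2 experiment 596 to 58357, with naive Cre libraries B and C the lowest at 596 and 2156. A count of 0 allows up to 3 counts, which is 10.96 to 46.7 counts per 1000000 miRNA counts (CPM) in a library of the AGO134 experiment. In the AGO2 experiment miR-5099 alone took 9.85% to 65.8% of miRNA counts, against 0.836% to 1.87% in the AGO134 experiment. All 6 listed T cell miRNAs (such as miR-142a-3p and miR-150-5p) had counts in every group, at 11.01% to 11.7% of miRNA counts in naive WT and 5.94% to 6.63% in WT at day 7. The 2 listed myeloid markers, miR-223-3p and miR-223-5p, were both at 0 in the day 7 groups and together reached at most 0.00407% elsewhere in the AGO134 experiment.

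The hairpins within Sfmbt2 are 71 in number and lie on the plus strand of chromosome 2 between 10466663 and 10518279 of GRCm38, all in intron 10 of the host transcript (10461473 to 10523944). The first along the intron belong to miR-466m, miR-466f and miR-669f in that order, and the last belongs to miR-669h. Near-identical copies are frequent. RefSeq gives 12 hairpins for miR-669a-5p and 10 for miR-467a-5p, but a single hairpin for miR-669c-5p, miR-467b-5p, miR-467d-5p and miR-669h-5p. The deposited counts of several members differed by little, measured as absolute differences summed over all libraries and divided by the larger total. These were 0.035% for miR-669a-5p and miR-669p-5p, 0.28% for miR-466e-3p and miR-466a-3p, and 0.635% for miR-466c-3p and miR-466p-3p. Reads from such copies cannot be assigned to one of them, so their separate values are uncertain, and with near copies merged the 67 measurements become 62.

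Mature sequences were found in the RefSeq table of GRCm38.p6 for 8 of the 80 names. The 5 of these that had more than 1 count are shown because they let the repeat-like build of the families be seen, 5′ to 3′ with the seed (bases 2 to 8, which pair with targets) in capitals:
miR-466j: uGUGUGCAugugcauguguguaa
miR-466k: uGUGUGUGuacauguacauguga
miR-669n: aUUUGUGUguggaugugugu
miR-467h: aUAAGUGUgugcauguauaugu
miR-466i-3p: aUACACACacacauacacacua
They differ in how far they are made of alternating G and U or alternating A and C. Of the steps between neighbouring bases, GU or UG made 68.4% in miR-669n, 63.6% in miR-466j, 59.1% in miR-466k and 47.6% in miR-467h, and 0% in miR-466i-3p. AC or CA made 71.4% in miR-466i-3p, 18.2% in miR-466k and 9.09% or less in the other three. These miRNAs lie at chr10:60960802-60960824 (miR-466j), chr3:85467396-85467418 (miR-466k), chr3:115979905-115979924 (miR-669n), chr9:115381898-115381919 (miR-467h) and chr13:17747552-17747573 (miR-466i-3p), all on the plus strand. They had 47, 36, 17, 8 and 25 counts over all 36 libraries, and the names with hairpins only outside Sfmbt2 together gave 0.551% of the members' counts. Of their 523 counts 389 belong to miR-466f, a name with no arm that the table places outside Sfmbt2 and whose counts run close to those of miR-466f-5p from the intron, so this share is uncertain.

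Because the hairpins in the intron are carried by the host transcript, the 250 bases before the start of the Sfmbt2 transcript that spans them are shown, from RefSeq on GRCm38.p6, plus strand, with CG pairs in capitals:
Sfmbt2 chr2:10372186-10372435: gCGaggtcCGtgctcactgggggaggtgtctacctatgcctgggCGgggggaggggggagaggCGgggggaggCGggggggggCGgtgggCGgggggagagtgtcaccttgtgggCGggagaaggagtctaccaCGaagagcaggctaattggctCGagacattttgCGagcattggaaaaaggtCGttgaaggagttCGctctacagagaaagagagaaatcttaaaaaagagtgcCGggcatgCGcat
In RefSeq the Sfmbt2 gene begins at 10370440, upstream of this window, which thus lies within the annotated gene. The window holds 15 CG pairs. Of the 32851 promoter windows of the same length in the table, 27.3% hold at least as many, and the median is 6. The files hold no measure of the host mRNA or of DNA methylation.

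In naive WT cells the cluster was a visible part of the miRNA pool. Summed over the 67 measurements it took 3.48%, 3.43%, 3.34% and 3.27% of miRNA counts in the 4 libraries (3.38% ± 0.0931, SD, n = 4). In WT Th2 cells at day 7 the share was 1.52%, 1.46%, 1.68% and 1.54% (1.55% ± 0.0906, n = 4), and at day 14 it was 1.53%, 1.27% and 1.30% (1.37% ± 0.142, n = 3). The naive and day 7 libraries did not overlap and their means differed 2.18-fold, while those of day 7 and day 14 overlapped. Near copies are each counted in this sum, and in the sums, family shares and shares of the members' counts below. With near copies counted once, the WT means were 2.87% in naive cells, 1.28% at day 7 and 1.13% at day 14. In AGO134 knockout cells the naive share was 3.07%, 3.28%, 3.43% and 2.50% (3.07% ± 0.409, n = 4), the lowest value being that of the shallowest library. It was 1.37% ± 0.104 (n = 4) at day 7 and 1.14% ± 0.0826 (n = 3) at day 14, so that the knockout libraries overlapped those of WT among naive cells and at day 7 and lay below them at day 14. Per STD entry count (entries in the files that name no miRNA), the means of naive WT and WT at day 7 differed 1.61-fold without overlap. Naive and day 7 AGO134 knockout libraries overlapped on this scale, at 13.6 to 29.3 and 14.1 to 16.6 per 1000 STD counts. In Cre cells the direction was opposite, with Th2 libraries above naive ones. There STD entries took 68.2% to 90.5% of counts in naive and 36.7% to 43.3% in Th2 libraries, so miRNA counts as a whole rose too. The AGO134 knockout lay below WT without overlap at each stage. WT was at 31.3 to 39.1 in naive cells and 20.2 to 24.4 at day 7. At day 14 WT was at 16.1 to 20.7 and the knockout at 10.6 to 13.6. Scaled to the STD entries, the median log2 difference over all miRNAs tested was also negative. It was -0.77 in naive cells, -0.63 at day 7 and -0.44 at day 14, so a lower level on this scale was not particular to the members. A sum over members has no test of its own here.

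**Figure D1:**
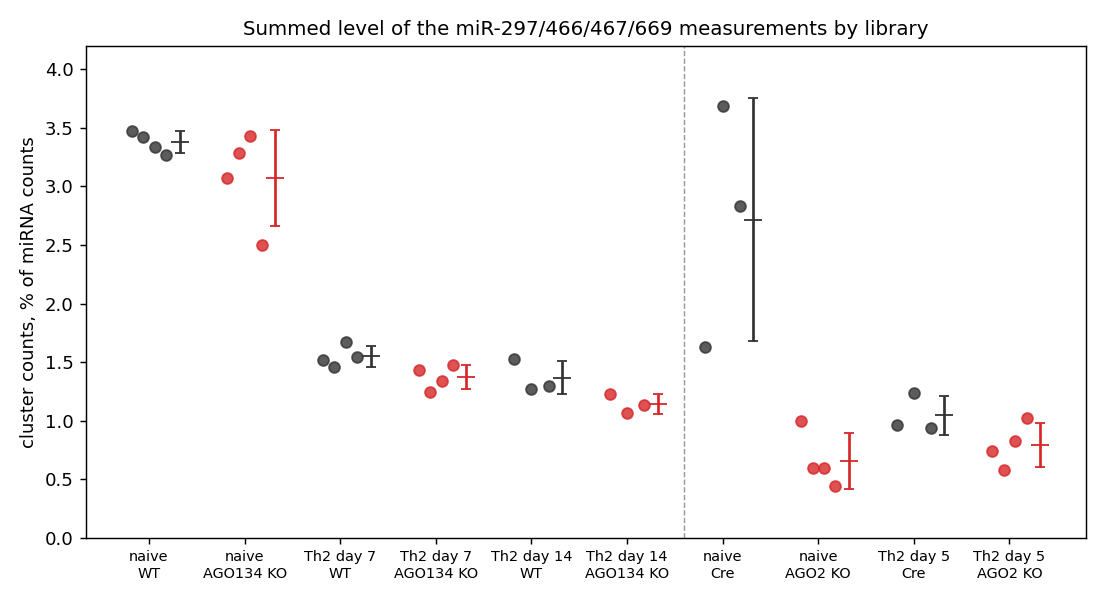
Summed level of the 67 measurements as a percentage of miRNA counts (vertical axis), one point per library, in 10 groups (horizontal axis), with the mean ± SD beside each group, WT or Cre in black, knockout (KO) in red, and a dashed line between the 2 experiments. Naive WT libraries sit at 3.27% to 3.48% and WT day 7 libraries at 1.46% to 1.68%, and the 3 naive Cre libraries spread from 1.63% to 3.69%.

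A few members held most of this signal. In naive WT, 5 measurements held over 50% of the members' counts and 19 held over 90%. The highest was miR-669c-5p, which ranked 41 among all 1966 names by mean level in naive WT and took 20.1% ± 1.48 of the members' counts there. By mean level over the 22 libraries of the AGO134 experiment (CPM scaled by the trimmed mean of M-values, TMM) the order was miR-669c-5p (4688), miR-669a-5p and its near copy miR-669p-5p (each 2549), miR-467a-5p (1440), miR-467b-5p (1069), miR-467e-5p (952), miR-467c-5p (630), miR-669o-5p (628), miR-669a-3p with the identical counts of miR-669o-3p (559), and miR-466n-3p (484). Levels in CPM compare counts and not molecules, since ligation and amplification differ between sequences.

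By family, the miR-669 members took 1.72% ± 0.0684 of miRNA counts in naive WT, the miR-467 members 0.903% ± 0.0595, the miR-466 members 0.739% ± 0.0988 and the miR-297 members 0.0191% ± 0.00318 (SD, n = 4 each). The 5p arms gave 75.2% of the members' counts and the 3p arms 22.2%, and the rest came from names with no arm. The miR-669 and miR-467 signal was mostly 5p, whereas the miR-466 signal was mostly 3p, with 0.541% of miRNA counts from 3p names and 0.112% from 5p names.

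Counts were tested with edgeR's quasi-likelihood test across all miRNAs that passed its filter on low counts, with Benjamini-Hochberg adjustment, and a miRNA was called at an adjusted p under 0.05. Of the 67 measurements 38 passed the filter, and they held 99.0% of the members' counts. Among these, 32 had at least 10 counts in 3 or more of the cultured libraries. The other 29 had 1 to 112 counts each over all 36 libraries, 946 in all. Pooled over the WT libraries, 20 of the 29 were lower in CPM at day 7 than in naive cells, 7 were higher and 2 had no count in either group.

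The first question was how the members change when naive cells are activated and cultured as Th2 cells. From naive to day 7 in WT, 31 of the 38 tested measurements fell and 1 rose, where 76.4% of all miRNAs tested were called in either direction (36.9% fell and 39.5% rose). With near copies merged these were 27 falls and 1 rise among 34. The median log2 change was -1.19 over the 38 and 0.11 over all miRNAs tested. Scaled to the STD entries 18 of the 38 fell and 1 rose, and these medians were -0.59 and 0.73. In AGO134 knockout cells, which share no library with WT, 32 fell and 1 rose, where 74.1% of all miRNAs tested were called (34.3% fell and 39.8% rose), and the median log2 change was -1.46 against 0.08 over all. The falls shared by both genotypes numbered 30, which is 96.8% of those in WT and 93.8% of those in the knockout. Sharing over all miRNAs tested was not counted, so whether it is particular to the members is not known. The difference between the 2 genotypes in this change, tested for each miRNA, was called for none of the 38 by edgeR, with 2 at an unadjusted p under 0.05 and none called by DESeq2. Of all miRNAs tested 2.36% were called for it (1.83% higher and 0.524% lower).

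The size of the fall differed by family and arm. All 5 tested miR-467 5p measurements fell in WT by 1.76 to 2.60 on the log2 scale (median -1.92). The 8 tested miR-466 3p measurements also fell, with a median of -2.03. That median is the value of the near copies miR-466e-3p and miR-466a-3p. As miR-466c-3p and miR-466p-3p are near copies too, fewer than 8 of these measurements are separate. Of the 8, miR-466n-3p changed least. Its -0.43 did not pass without naive WT library 1, 2 or 4 or day 7 library 2 (-0.36 to -0.42), and it turned to 0.17 when scaled to the STD entries. Of the 11 tested miR-669 5p measurements 9 fell and 1 rose, with a median of -0.80, and of the 6 tested miR-466 5p measurements 4 fell, with a median of -0.93. The tested miR-669 5p measurements include the near copies miR-669a-5p and miR-669p-5p. Whether the families differ from each other was not tested. As shares of the members' counts, the miR-467 5p names went from 23.9% in naive WT to 14.4% at day 7 and the miR-669 5p names from 47.7% to 60.5%.

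**Figure D2:**
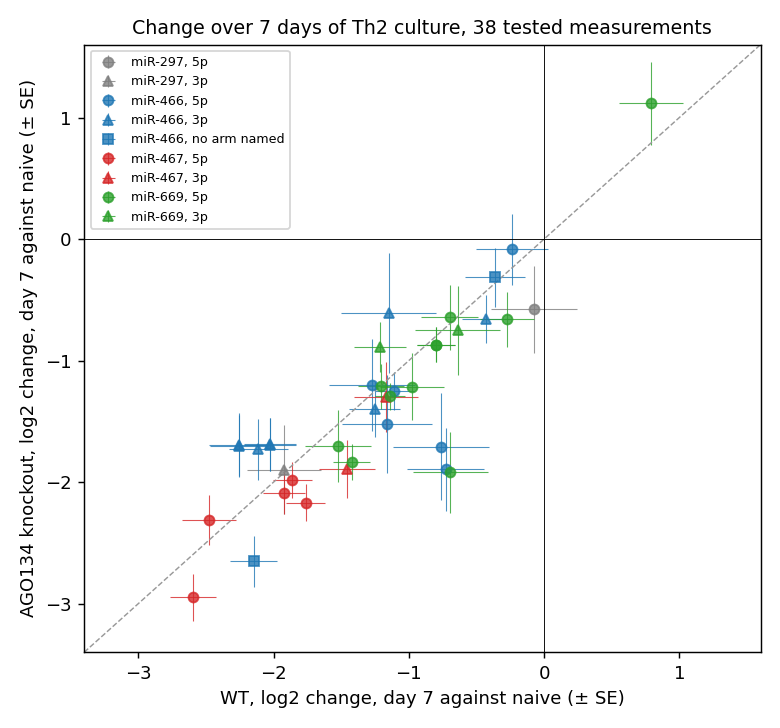
Log2 change from naive to day 7 of the 38 tested measurements in WT (horizontal axis) and in AGO134 knockout cells (vertical axis), with bars of 1 standard error (SE), coloured by family and shaped by arm, and a dashed line of equal change. The miR-467 5p points lie at the lower left, between -1.76 and -2.60 in WT, and miR-669h-5p lies alone above 0 on both axes.

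The most abundant member, miR-669c-5p, was at 5703, 6773, 6212 and 7375 CPM in the naive WT libraries and at 3297, 2750, 2911 and 2892 CPM in WT at day 7. The groups did not overlap, and the change of -1.14 ± 0.111 (SE, log2) had an adjusted p of 2.62e-10 by edgeR. In the knockout it went from 7986 to 8609 CPM in naive cells to 3253 to 3505 CPM at day 7, a change of -1.29 ± 0.113. No further change was called by day 14 in either genotype, where WT libraries lay at 2944 to 3773 CPM and knockout libraries at 2442 to 3062 CPM.

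For miR-669a-5p, whose reads are shared with miR-669p-5p and the other copies, the naive WT libraries held 2730, 3316, 3102 and 3645 CPM and the day 7 libraries 2094, 1848, 1727 and 1691 CPM. The change was smaller than that of miR-669c-5p, at -0.80 ± 0.139 (adjusted p 8.34e-06, edgeR), and again the groups did not overlap. The opposite arm, miR-669a-3p, changed by -1.21 ± 0.190, from 725 to 1126 CPM in naive WT to 265 to 472 CPM at day 7. Scaled to the STD entries neither passed, at -0.18 for miR-669a-5p and miR-669p-5p (adjusted p 0.397) and -0.61 for miR-669a-3p (adjusted p 0.0655, edgeR).

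The lowest value among the 38 was that of a miR-467 5p member. miR-467d-5p was at 630, 592, 607 and 569 CPM in naive WT and at 83.3, 118, 96.1 and 95.7 CPM at day 7, a change of -2.60 ± 0.167 (adjusted p 4.07e-14, edgeR), and in the knockout it changed by -2.95 ± 0.195. miR-467b-5p went from 1709 to 2058 CPM in naive WT to 250 to 460 CPM at day 7 (-2.48 ± 0.198), and miR-467a-5p from 2066 to 2559 CPM to 561 to 727 CPM (-1.86 ± 0.145). The naive and day 7 libraries of each of these were far apart. The remaining miR-467 members in this group, miR-467c-5p and miR-467e-5p, changed by -1.92 and -1.76 in WT and by -2.09 and -2.17 in the knockout.

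Among the miR-466 members, miR-466c-3p and its near copy miR-466p-3p had the largest falls in WT. miR-466c-3p was at 782, 706, 603 and 580 CPM in naive WT and at 125, 89.2, 177 and 164 CPM at day 7 (-2.26 ± 0.214, adjusted p 1.46e-10, edgeR). miR-466g, a name with no arm, changed by -2.15 in WT and by -2.65 in the knockout, where it went from 427 to 821 CPM in naive cells to 87.1 to 135 CPM. In contrast miR-466f-5p, at 66.2 to 98.5 CPM in naive WT and 54.1 to 83.3 CPM at day 7, had a change of only -0.24, which did not pass.

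The single tested member that rose in culture was miR-669h-5p, whose hairpin is the last along the intron. It was at 59.6, 75.1, 71.0 and 117 CPM in naive WT and at 142, 133.8, 123.2 and 148 CPM at day 7, so that every day 7 library lay above every naive library. The change was 0.79 ± 0.236 in WT (adjusted p 0.00351) and 1.12 ± 0.341 in the knockout (adjusted p 0.00451), both by edgeR. These values rest on 16 to 22 counts in a naive WT library and 2 to 10 in a naive knockout library. Its other arm, miR-669h-3p, had no count.

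**Figure D3:**
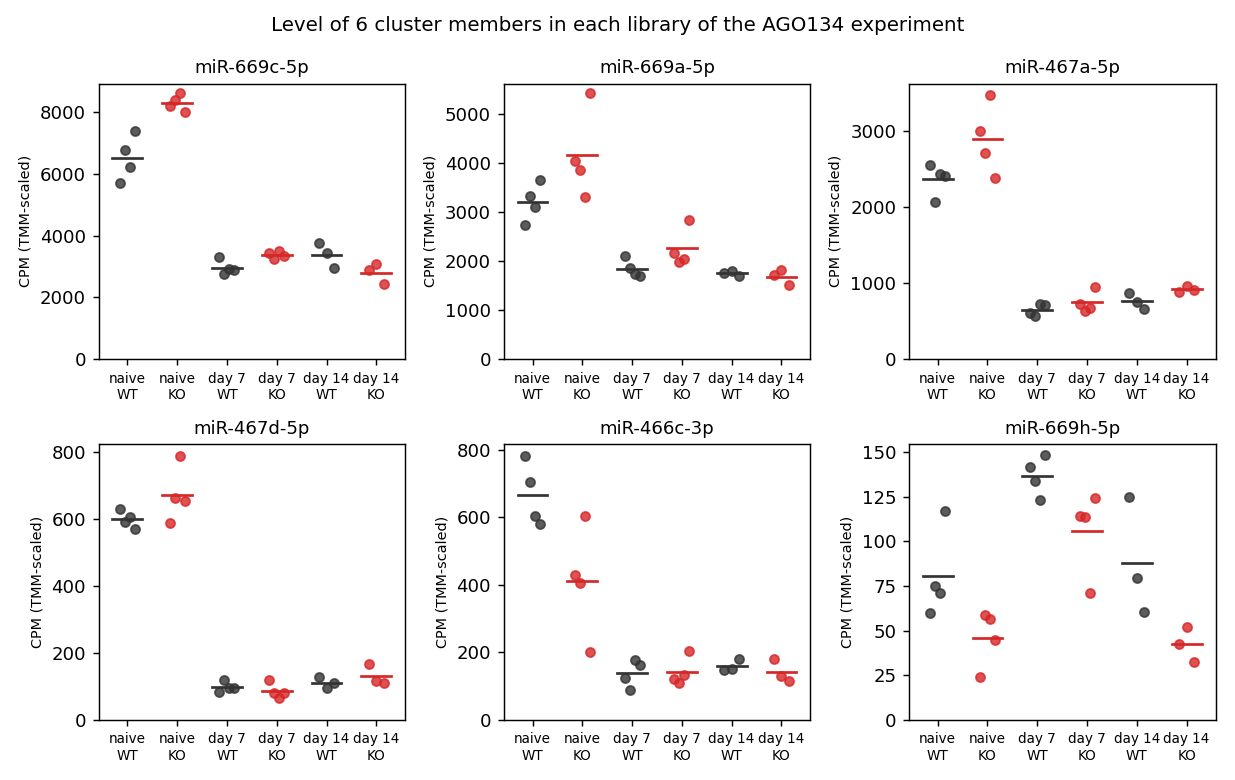
Level in CPM (TMM-scaled, vertical axes from 0) of 6 members in each of the 22 libraries of the AGO134 experiment, WT in black and AGO134 knockout (KO) in red, with a line at each group's mean. The level of miR-467d-5p drops from 569 to 630 CPM in naive WT to 83.3 to 118 CPM at day 7, while miR-669h-5p is highest at day 7.

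The balance of the 2 arms shifted with culture for some hairpins and not for others. The 3p arm made 47.3% ± 5.72 of the miR-467d counts (both arms) in naive WT and 66.7% ± 8.28 at day 7, with ranges of 40.8% to 52.3% and 55.4% to 75.3% that did not overlap. In naive knockout cells it was 46.3% ± 6.39 and at day 7 65.5% ± 8.39. For miR-466c the 3p share went the other way, from 48.5% ± 4.84 in naive WT to 29.4% ± 4.395 at day 7, again without overlap, while in the knockout it was 33.3% ± 12.4 and 29.8% ± 8.51. For miR-669f the WT shares were 16.4% ± 3.41 and 17.5% ± 6.02 and overlapped. These shares are descriptions with no test, and arms with near copies elsewhere in the cluster include reads of those copies.

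Members with a single hairpin allow the change to be placed along the intron, which 24 tested measurements did. The 7 within 5 kb of the first hairpin had WT changes of -0.27 to -1.21 from naive to day 7, with a median of -0.73. The 11 between 5 and 45 kb had changes of -1.14 to -2.60, with a median of -1.92. The 6 beyond 45 kb ranged from -2.15 for miR-466g to 0.79 for miR-669h-5p, with a median of -1.01. These include 4 measurements with a near copy elsewhere in the intron, miR-466m-5p, miR-466e-3p, miR-466a-3p and miR-466p-3p, whose reads cannot be placed. Without them, an alternative added after seeing the data, the 3 medians were -0.84 (6), -1.84 (8) and -1.01 (6). The limits of 5 and 45 kb were chosen after the positions and earlier results were known, families are not spread evenly along the intron, and no test was made.

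**Figure D4:**
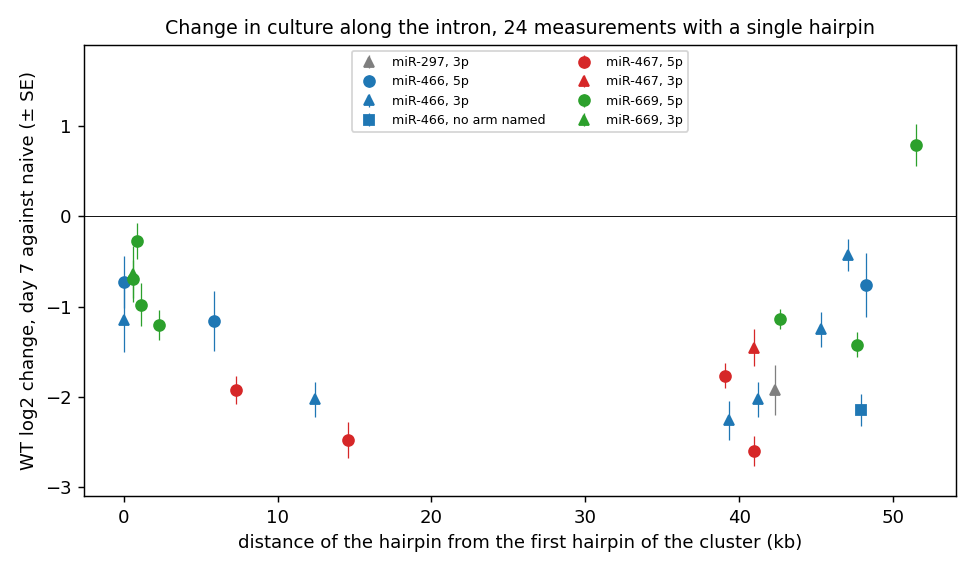
WT log2 change from naive to day 7 (vertical axis, bars of 1 SE) against the distance of the hairpin from the first hairpin of the cluster in kb (horizontal axis) for 24 tested measurements with a single hairpin, coloured by family and shaped by arm. Points within 5 kb lie between -0.27 and -1.21, those from 5 to 45 kb lie between -1.14 and -2.60, and the last point, miR-669h-5p, lies at 0.79.

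From day 7 to day 14 the members changed less. In WT 8 of the 38 fell and 1 rose, where 50% of all miRNAs tested were called in either direction (24.9% fell and 25.1% rose), and the median was -0.27 against -0.03 over all. In the knockout 7 fell and 2 rose, where 44.8% of all were called (23.3% fell and 21.5% rose), and the median was -0.35 against -0.04. The genotypes shared 4 of the falls, 50% of those in WT and 57.1% of those in the knockout: miR-466f, miR-466f-5p, miR-669e-5p and miR-669h-5p. Sharing over all miRNAs tested was not counted here either. The counts of called members changed with a single library. In WT the falls numbered 3 to 8 and the rises 0 to 1 when each library of the comparison was left out. In the knockout they numbered 4 to 10 and 0 to 2.

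The late fall was largest for miR-466f-5p, which had changed little by day 7. It was at 54.1, 60.5, 66.1 and 83.3 CPM in WT at day 7 and at 27.7, 26.5 and 7.08 CPM at day 14 (-1.68 ± 0.363, adjusted p 0.000328, edgeR), and it changed by -1.76 in the knockout. miR-466f, the name with no arm, whose only RefSeq hairpin is outside Sfmbt2, changed by -1.52 and -1.55. miR-669h-5p fell back by 0.62 in WT, to 125, 79.4 and 60.2 CPM, and by 1.33 in the knockout, to 42.6, 52.0 and 32.6 CPM. The rise of miR-467b-5p was small, 0.58 in WT and 0.68 in the knockout. In WT it did not pass with library sizes only (0.43) or the STD entries (0.37), nor in the knockout with the STD entries (0.67). It also did not pass in WT without day 7 library 1 (0.46), day 7 library 2 (0.49) or day 14 library 1 (0.35), nor in the knockout without day 7 library 2 (0.54). The rise of miR-467d-5p in the knockout (0.59, adjusted p 0.0489, edgeR) did not pass by DESeq2 (0.61) or without day 14 library 2 (0.39) or without any one of day 7 libraries 2 to 4 (0.52 to 0.56). The fall of miR-297a-5p in WT (-1.10) rested on 12 counts at day 14. It did not pass without day 7 library 2 (-1.04) or day 14 library 1 (-1.07) or 2 (-0.98). DESeq2 (-1.07), no filter (-1.11) and all locus entries of each name (-0.95) did not give the call either. That of miR-669b-5p (-0.99) did not pass without day 14 library 1 or 3 (-0.86 each). The fall of miR-669e-5p in the knockout (-0.92) did not pass without day 7 library 1 (-0.54) or day 14 library 2 (-0.76).

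The second question was what the loss of AGO1, AGO3 and AGO4 does to the members at each stage. In naive cells 3 of the 38 were higher in the knockout and 2 lower, where 18.3% of all miRNAs tested were called (8.12% higher and 10.2% lower). At day 7 none was called by edgeR, where 14.4% of all were (8.64% higher and 5.76% lower), with 5 at an unadjusted p under 0.05 and none called by DESeq2. At day 14 1 was lower, where 19.6% of all were called (8.9% higher and 10.7% lower). These shares of 5, 0 and 1 of 38 lay under the background. The median log2 difference of the members was 0.17 in naive cells, -0.03 at day 7 and -0.12 at day 14. The change of the knockout effect from naive to day 7 and from day 7 to day 14 was called for none of the 38 by edgeR, with 2 and 1 at an unadjusted p under 0.05, while DESeq2 called 1 lower in the second. For the second, 12% of all miRNAs tested were called (5.5% higher and 6.54% lower).

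**Figure D5:**
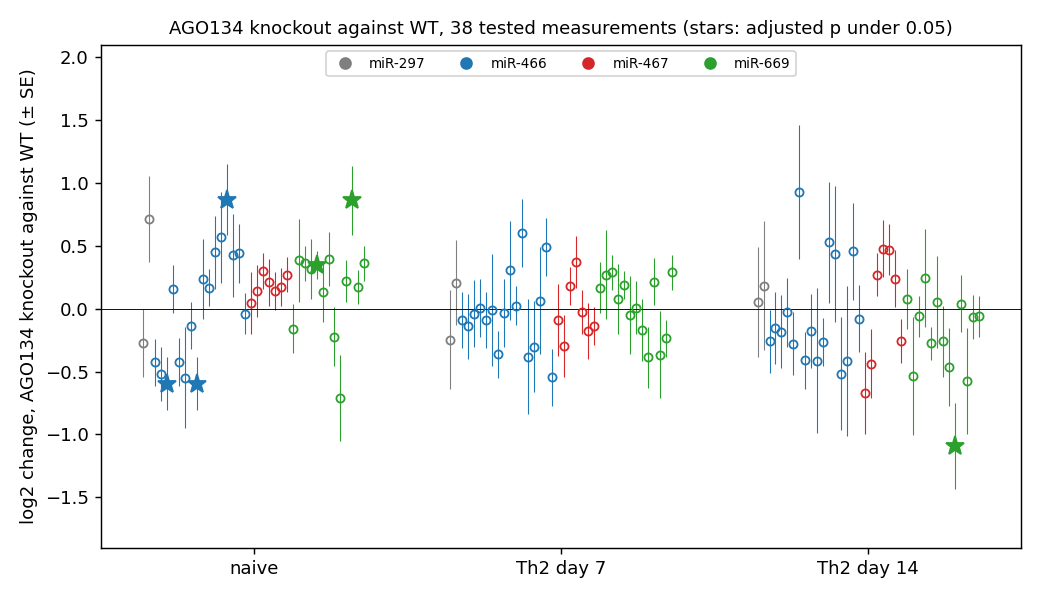
Log2 difference between AGO134 knockout and WT (vertical axis, bars of 1 SE) for the 38 tested measurements at the 3 stages (horizontal axis), coloured by family, with filled stars for those with an adjusted p under 0.05. There are 5 stars in naive cells, none at day 7 and 1 at day 14, miR-669h-5p at -1.09.

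In naive cells miR-669c-5p was at 8193, 8372, 8609 and 7986 CPM in the knockout, above all 4 WT libraries (5703 to 7375). The difference of 0.35 ± 0.110 (adjusted p 0.0290, edgeR) became 0.05 with library sizes as the only scaling. Scaled to the STD entries it turned to -0.41. The difference was also not called with no filter (0.32), with all locus entries of each name (0.31) or with the naive groups alone (0.36). It did not pass without WT library 1 (0.24), 2 (0.34) or 3 (0.32), or without knockout library 2 (0.35) or 3 (0.33). The scaling also moved the median of all miRNAs tested in this comparison, from -0.05 to -0.33 with library sizes and to -0.77 with the STD entries. Relative to that median, miR-669c-5p was higher under each scaling. A change of scaling shifts all miRNAs by nearly the same amount, so this adds no separate evidence.

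The near copies miR-466m-5p and miR-669m-5p were also higher in naive knockout cells, by 0.87 ± 0.282 (adjusted p 0.0327) and 0.86 ± 0.274 (adjusted p 0.0293, edgeR). For miR-466m-5p this was 52.1, 57.4, 51.2 and 79.8 CPM in WT and 126.9, 98.3, 84.9 and 157 CPM in the knockout, without overlap, on 7 to 16 counts a library. For miR-669m-5p the groups overlapped. Each call ended without WT library 1, 2 or 3 or knockout library 1 or 4, with values of 0.71 to 0.83. Neither passed with library sizes only (0.59 each) or by DESeq2 (0.93 each), and with the STD entries both values shrank to 0.13 and 0.14. Both calls were also lost with no filter (0.83 and 0.82) and with the naive groups alone (0.81 each). miR-466c-3p and miR-466p-3p were lower by 0.60 (adjusted p 0.0440 and 0.0491, edgeR), with 580 to 782 CPM in WT and 428, 406, 606 and 203 CPM in the knockout for miR-466c-3p. Those groups overlapped. The calls ended without WT library 1 or 2 or knockout library 1, 2 or 4, and that of miR-466p-3p also without WT library 3. Neither was called by DESeq2 (-0.57 each, adjusted p 0.0607 and 0.0644). Without knockout library 4, the shallowest at 64264 counts, both differences were -0.43.

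The 3p arms as a whole took less of the cluster in naive knockout cells than in naive WT. The 3p share of the members' counts was 25.6%, 24.4%, 19.9% and 19.1% in the naive WT libraries and 16.5%, 15.3%, 19.2% and 10.6% in the knockout, where the shallowest library had the lowest value. The ranges overlapped only between the lowest WT and the highest knockout library. At day 7 they were 14.7% to 21.1% in WT and 14.8% to 17.9% in the knockout, and at day 14 16.0% to 20.7% and 14.2% to 19.3%, overlapping at both stages. Depth was also lower in the naive knockout libraries than in the naive WT libraries (64264 to 195122 against 196357 to 243748), and its part in the share was not tested.

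At day 14 miR-669h-5p was lower in the knockout, at 42.6, 52.0 and 32.6 CPM against 125, 79.4 and 60.2 CPM in WT (-1.09 ± 0.342, adjusted p 0.0229, edgeR). The groups did not overlap, but the call ended without WT library 1 (-0.75), knockout library 2 (-1.11) or knockout library 4 (-0.90), and with the day 14 groups fitted alone (-1.09, adjusted p 0.0544, edgeR). In naive cells the knockout libraries, at 23.8 to 59.0 CPM, lay below the WT libraries, at 59.6 to 117 CPM, with a difference of -0.71 that did not pass (adjusted p 0.161, edgeR). At day 7 the difference was -0.39, and the libraries overlapped.

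A further question was the effect of AGO2 loss in T cells, where depth left only 3 measurements tested among 98 miRNAs: miR-669c-5p and the near copies miR-669a-5p and miR-669p-5p. In naive cells the near copies were lower in the AGO2 knockout by 1.87 ± 0.300 (adjusted p 0.00017, edgeR), where 9.18% of all miRNAs tested were called (7.14% lower and 2.04% higher). miR-669a-5p was at 4431, 5049 and 5833 CPM in Cre libraries A to C and at 1139, 1279, 1584 and 1649 CPM in the knockout libraries. These levels rest on 33, 5 and 16 counts in Cre and on 17, 11, 8 and 10 counts in the knockout. Without any 1 library of either group the difference was -1.61 to -1.93 and passed. Without both Cre libraries B and C it was -1.19 and did not pass (adjusted p 0.165, edgeR), but this leaves 1 naive Cre library, assumed to vary like the other groups, and none of the 151 miRNAs then tested was called. For miR-669c-5p the Cre libraries held 38, 0 and 11 counts and the difference of -1.23 did not pass (adjusted p 0.0721, edgeR).

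The summed level in naive cells was 1.63%, 3.69% and 2.83% of miRNA counts in Cre and 0.996%, 0.599%, 0.592% and 0.440% in the AGO2 knockout. With miR-5099 and the members themselves taken out of the denominator the libraries still did not overlap, at 3.55% to 5.16% in Cre and 1.31% to 1.96% in the knockout. The values in naive Cre come from 22 to 141 member counts a library and those in the knockout from 38 to 164.

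In Th2 cells of that experiment none of the 3 measurements was called in the AGO2 knockout by edgeR, where 44.9% of all miRNAs tested were (25.5% lower and 19.4% higher), none had an unadjusted p under 0.05 and DESeq2 called none. miR-669a-5p was at 1244, 1371 and 1560 CPM in Cre and at 1048, 1052, 1091 and 1041 CPM in the knockout, which did not overlap, with a difference of -0.39 (adjusted p 0.183, edgeR). miR-669c-5p was at 1441 to 1918 CPM in Cre and 526 to 1300 CPM in the knockout, also apart (-0.64, adjusted p 0.112, edgeR). The summed levels overlapped, at 0.935% to 1.24% in Cre and 0.579% to 1.03% in the knockout. Per 1000 STD counts they did not overlap, at 12.6 to 21.3 in Cre and 2.71 to 7.19 in the knockout. The means differed 3.55-fold on this scale against 1.32-fold as shares of miRNA counts. STD entries took 36.7% to 43.3% of counts in these Cre libraries and 58.8% to 68.2% in the knockout libraries. Per STD count, miRNA counts as a whole were thus also lower in the knockout.

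When the Th2 libraries of the AGO2 experiment were fitted alone, more members passed the filter, 14 in all, of which 3 were higher and 2 lower in the knockout. Of all 153 miRNAs tested in that fit 51.6% were called (24.2% higher and 27.5% lower), so the members' share lay under the background. miR-466b-3p was higher in the knockout by 1.12 (adjusted p 0.0103), and the near copies miR-466a-3p and miR-466e-3p by 0.91 (adjusted p 0.0269), while miR-669o-5p was lower by 1.10 (adjusted p 0.0250) and miR-669a-3p by 0.94 (adjusted p 0.0281), all by edgeR. Beside this, the 3p share of the members' counts was 25.0% to 29.5% in Cre and 29.7%, 56.9%, 39.5% and 47.4% in the knockout, with every knockout library above every Cre library. The knockout library with the highest share was also the shallowest of the 7, at 11218 counts.

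miR-669h-5p, chosen for its values in the other experiment, had 3, 9 and 5 counts in the Th2 Cre libraries and 0 in each of the 4 Th2 AGO2 knockout libraries. Over the pooled libraries this was 110 CPM in Cre against 0 of 114816 counts in the knockout, which allows 26.1 CPM. The Cre level was 4.23 times that limit, with no test. This ratio leaves out the spread of the 17 Cre counts and of the libraries, so it is not a lower bound. Naive libraries of both genotypes had no count of miR-669h-5p, which at their depth allows 263 CPM in Cre and 67.8 CPM in the knockout.

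With TMM scaling, the change with culture in the AGO2 experiment ran the same way in Cre cells. All 3 tested measurements fell, miR-669a-5p and miR-669p-5p by 1.85 ± 0.283 (adjusted p 1.56e-05) and miR-669c-5p by 1.18 ± 0.403 (adjusted p 0.0181, edgeR), where 56.1% of all miRNAs tested were called (19.4% fell and 36.7% rose). Scaled to the STD entries these values turned to 0.91 and 1.495. The summed level per 1000 STD counts also rose in Cre cells, from 3.89 to 7.6 in naive libraries to 12.6 to 21.3 in Th2 libraries, without overlap. STD entries took 68.2% to 90.5% of counts in naive Cre and 36.7% to 43.3% in Th2 Cre. On this scale miRNA counts as a whole thus rose too, and the rise was not particular to the members. The fall of miR-669c-5p did not pass with library sizes only (-0.93) or no filter (-0.69), nor without naive Cre library A (-0.67) or without Th2 Cre library A (-1.02), B (-0.91) or C (-0.90). In AGO2 knockout cells none of the 3 was called by edgeR, where 51% of all were (13.3% fell and 37.8% rose), with none at an unadjusted p under 0.05, and DESeq2 called all 3 lower. The edgeR values were -0.37 for miR-669a-5p and -0.59 for miR-669c-5p. The mean summed share in AGO2 knockout cells was 0.657% in naive and 0.793% in Th2 cells, with overlap. With miR-5099 and the members out of the denominator it was 1.57% and 1.09%, without overlap. Per 1000 STD counts the means were 2.19 and 4.41, with overlap. STD entries took 73.3% to 79.2% of counts in these naive libraries and 58.8% to 68.2% in the Th2 libraries.

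The makeup of the cluster differed between the 2 experiments, which were separate sets of libraries, so that experiment and batch cannot be told apart. In Th2 Cre cells at day 5 miR-467d gave 2 counts from its 5p arm and 59 from its 3p arm, a 3p share of 95.7% ± 5.16, against 66.7% in WT cells at day 7. miR-467b-5p was at 14.1 to 102 CPM in Th2 Cre and 250 to 460 CPM in WT at day 7. For miR-669a-5p the levels were closer, 1244 to 1560 CPM and 1691 to 2094 CPM.

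Outside the cluster, the 5 miRNAs with a pattern most like that of miR-669c-5p over the 22 libraries of the AGO134 experiment were miR-211-5p, miR-181a-2-3p, miR-1247-5p, miR-200c-3p and miR-200b-3p, with Pearson correlations of log2 level of 0.95, 0.94, 0.94, 0.94 and 0.93. The libraries fall into naive and cultured ones, and within these sets the values were different: for miR-211-5p -0.46 over the 8 naive and 0.35 over the 14 cultured libraries, and for miR-200c-3p 0.72 and 0.03. Within the cluster, miR-467e-5p had 0.97 over all, 0.91 over the naive and 0.13 over the cultured libraries, and miR-669h-5p -0.35 over all. The fall of miR-211-5p was much deeper, from 2197 to 5.71 CPM between naive WT and day 7. The 2 miR-200 miRNAs belong to the listed markers of epithelial, liver and muscle cells, whose 7 members together went from 0.351% to 0.415% of miRNA counts in naive WT to 0.167% to 0.212% at day 7 and 0.0608% to 0.0661% at day 14. Within that list the liver miRNA miR-122-5p went the other way, from 254 CPM in naive WT to 712 CPM at day 7, while miR-200b-3p went from 1253 to 223 CPM. The endothelial and stromal list of 6 went from 0.0148% to 0.0370% in naive WT to 0.0962% to 0.127% at day 7, and the red cell and platelet list from 0.0292% to 0.0872% in naive WT to 0.00743% to 0.0126% at day 7. Their part in the change of the cluster was not tested.

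Other clusters known to be imprinted or tandem showed other patterns, given as counts with no test. Of the 4 miRNAs at the imprinted Gnas locus 3 were tested, and all 3 rose from naive to day 7 in WT, with a median log2 change of 2.57. The imprinted Dlk1-Dio3 cluster had 108 names in the files, 48 with counts, and took 0.00978% of miRNA counts in naive WT. Its single tested member changed by 0.27, which did not pass. The X-linked cluster near Fmr1 had 12 of 40 names with counts and none tested.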

How the data were processed

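MicroRNAs were sequenced from small RNA libraries of total RNA, single-end per the labels' protocols and paired-end per the series text. The authors deposited raw counts per mature miRNA entry, per the file headers, with no normalization. The submitters' processing notes name GRCm38. The aligner, the counter and the strand setting are not given in these sources. Each library has 2110 miRNA entries and 9 STD entries, which name no miRNA, were left out of library sizes and tests, and took 36.7% to 90.5% of counts. For a name with several entries the one with the highest total was used, which left 1966 names, and identical members were counted once.

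Counts were tested with edgeR 4.0.16 (quasi-likelihood, TMM, filterByExpr with a minimum count of 10, R 4.3.3), each experiment fitted whole with a mean per group, and checked on simulated data. DESeq2 1.42.0 was an alternative. Likeness used log2 of CPM + 10. Named members were the 10 highest, all called between genotypes, up to 4 per direction and time comparison, and the 5 outside miRNAs most like the top member. Members named from the fit of Th2 libraries alone, arms and other named members were chosen after their values were seen. Members and lists were chosen with earlier results of these data known. Among 48 replicate pairs the lowest chi-square per degree of freedom was 1.88, so none was 1 library deposited more than once.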

Additional observations from a re-analysis of the deposited data

Results flagged for a closer look

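In 3 of the 94 groups of 4 libraries examined, 1 library lay far from the other three, where chance gives about 1 in 20. For miR-297a-5p in naive WT it was library 3, at 47.3 CPM against 26.5 to 29.8 in the others, on 12 counts. For miR-669o-5p in naive AGO134 knockout cells it was library 3, at 1081 CPM against 1219 to 1237. For miR-669m-5p in WT at day 7 it was library 3, at 45.1 CPM against 33.3 to 35.1, on 15 counts.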

How the results depend on the processing

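The alternatives were other scalings (DESeq2 size factors, library size only, the STD entries), no filter, all locus entries of a name, DESeq2, a replicate block, and only the groups compared, and, chosen after seeing the data, merging of near copies and leaving out naive Cre libraries B and C. Settings and comparisons not named here kept the counts of called members within 1.5 times. In naive cells the 3 members higher in the AGO134 knockout became 5 under DESeq2 size factors and 0 under library size only, no filter, the STD entries or the groups alone. The 2 lower became 0 with DESeq2 size factors or DESeq2, 1 with near copies merged, 5 with all locus entries or the groups alone, 6 with library size only and 16 with the STD entries. With 1 library left out these counts were 0 to 5 higher and 0 to 5 lower. At day 7 the 0 lower became 2 with library size only, 8 with the STD entries and 1 with the groups alone. At day 14 the 1 lower became 2 with library size only, 3 with the STD entries and 0 with the groups alone, and 0 to 1 with 1 library left out. DESeq2 called 1 member lower in the change of the knockout effect from day 7 to day 14. Over all miRNAs tested, the naive calls split into 31 higher and 39 lower with TMM, 8 and 80 with library size only and 0 and 204 with the STD entries, and those of WT from naive to day 7 into 151 and 141, 167 and 122, and 200 and 70.

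The falls from naive to day 7 numbered 18 in WT and 19 in the knockout with the STD entries, and 28 to 32 and 30 to 32 with 1 library left out. From day 7 to day 14 in WT the 1 rise became 0 with library size only or the STD entries and 3 with all locus entries, and 0 to 1 with 1 library left out, while the 8 falls became 5 with no filter or DESeq2 and 4 with all locus entries, and 3 to 8 with 1 library left out. In the knockout the 2 rises became 1 with library size only, no filter, DESeq2 or the groups alone and 0 with the STD entries, and 0 to 2 with 1 library left out, while the 7 falls became 4 with no filter or the STD entries, and 4 to 10 with 1 library left out.

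In naive cells the 2 members lower in the AGO2 knockout became 0 without naive Cre libraries B and C and 1 with near copies merged. In Th2 cells, where none was called, 3 were higher and 2 lower with the groups alone, and 3 were lower with no filter or the STD entries, 2 with all locus entries and 0 to 3 with 1 library left out. In Cre cells with culture the 3 falls became 0 and 1 member rose with the STD entries, and 2 to 3 fell with 1 library left out. In AGO2 knockout cells with culture 3 fell with DESeq2 size factors, all locus entries, DESeq2 or the groups alone, 1 with no filter, and 0 to 3 with 1 library left out. With the STD entries 5 values turned sign: miR-669c-5p in the naive AGO134 knockout to -0.41, miR-466n-3p in WT at day 7 to 0.17, and with culture in Cre cells miR-669a-5p and miR-669p-5p to 0.91 and miR-669c-5p to 1.495. The cause of these changes was not tested.

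Whether replicate numbers pair the libraries is not known. Deviations of same-numbered libraries correlated at -0.31 to 0.18 over 50 pairs in the AGO134 experiment and at -0.16 to 0.08 over 7 pairs in the AGO2 experiment. Those of differently numbered libraries correlated at -0.27 to 0.25 and at -0.37 to 0.36. So few libraries a group cannot show whether same-numbered ones share an animal. With a replicate block the 2 rises from day 7 to day 14 in the knockout became 1 (miR-467d-5p 0.61, adjusted p 0.0588, edgeR, did not pass), the fall of miR-669c-5p in Cre cells did not pass (-0.95, adjusted p 0.118, edgeR), and no other count of called members moved by over 1.5 times. No paired analysis was possible because Cre and AGO2 knockout libraries share no replicate letter, for the comparisons between those genotypes.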
